A study of Homo sapiens with 8 samples.

Results

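BCL11A is a zinc-finger repressor that silences the γ-globin genes in adult erythroid cells. Its expression in these cells depends on a cluster of erythroid-specific elements in intron 2, known as DNase I hypersensitive sites by their distance in kb from the start site (+55, +58 and +62). GATA1, the erythroid master regulator, is among the factors that bind them. The elements described here are the ATAC-seq peaks of a 600.0 kb window of chromosome 2 (hg19) that runs from +330.8 kb, past the end of the gene, to −269.2 kb, upstream of its start site. They were selected on the measured calls themselves: every peak of 4 lists whose summit (the base of highest signal) lay in that window. This gave 38 peaks, which merged into 14 regions of the 43654 regions in the 4 lists.

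ATAC-seq uses the transposase Tn5, which inserts adapters into open chromatin, so sequenced fragments accumulate at accessible DNA. The line was HUDEP-2, an immortalised human erythroid progenitor line from umbilical cord blood, which is expanded with SCF, EPO, dexamethasone and doxycycline. All 4 libraries came from cells carrying the lentiviral scrambled guide (sgControl), deprived of growth factors for 5 h and then given PBS or 50 ng/mL SCF, the ligand of the Kit receptor, for 1 h. There were 2 libraries per treatment (PBS R1 and R2, SCF R1 and R2), each from 50000 cells. The methods call them biological duplicates, all of 1 line, and the labels do not say whether they were separate cultures, so p-values measure the spread between these libraries. The sgEGR1 libraries of the same design were not analysed here.

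The lists held 29269 to 33616 peaks, and the background pileup, a guide to depth, was 0.885 to 1.5 fragments. Erythroid identity was checked at promoters: 7 of 8 erythroid markers had a peak within 1 kb of the start site in all 4 libraries, and ALAS2 had one in PBS R2 alone. Of all protein-coding promoters, 57.6% were called in all 4 libraries and 36.0% in none. No peak was called at CD3E, CD4, CD8A, CD79A, MS4A1, MPO, CSF1R, NEUROD1 or RBFOX3, which mark T cells, B cells, myeloid cells and neurons. EBF1 (B cell), SNAP25 (neuron), SPI1 and CD14 (myeloid) were called in all 4, and PAX5 (B cell) in SCF R1 alone. Of the 4 myeloid markers, the 2 that were called ranked higher in both SCF libraries, beside a background of 16.0% of regions called in all 4. SPI1 ranked 26.1 and 46.2 in PBS against 57.2 and 50.3 in SCF, and CD14 27.8 and 36.4 against 55.2 and 52.1. Their part in the differences at BCL11A was not tested.

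The sequences that carry the description below are an erythroid element, the region of intron 2 called in every library, the promoter and the upstream region with the clearest rank order. Each is reference sequence (GRCh37, plus strand, the strand opposite to BCL11A transcription) centred on the highest-ranked summit, with the GATA words AGATAA or TGATAA, in capitals, which read TTATCT or TTATCA where the word lies on the minus strand.
+55.3 kb region, chr2:60725323-60725621: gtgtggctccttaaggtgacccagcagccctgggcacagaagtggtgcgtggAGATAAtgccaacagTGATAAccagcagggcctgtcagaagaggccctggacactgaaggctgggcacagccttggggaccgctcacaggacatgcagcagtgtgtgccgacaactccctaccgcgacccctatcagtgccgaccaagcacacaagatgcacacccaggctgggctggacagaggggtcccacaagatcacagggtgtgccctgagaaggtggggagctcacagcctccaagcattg
+22.7 kb region, chr2:60757941-60758141: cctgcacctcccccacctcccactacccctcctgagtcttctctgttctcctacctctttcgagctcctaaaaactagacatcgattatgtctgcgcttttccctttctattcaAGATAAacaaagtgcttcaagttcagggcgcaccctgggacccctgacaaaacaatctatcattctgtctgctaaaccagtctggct
−1.7 kb region (promoter), chr2:60782429-60782629: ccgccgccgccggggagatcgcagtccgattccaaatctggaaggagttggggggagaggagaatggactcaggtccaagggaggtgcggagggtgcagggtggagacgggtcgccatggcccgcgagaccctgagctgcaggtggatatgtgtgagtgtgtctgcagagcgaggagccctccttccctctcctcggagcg
−28.2 kb region (upstream), chr2:60808900-60809100: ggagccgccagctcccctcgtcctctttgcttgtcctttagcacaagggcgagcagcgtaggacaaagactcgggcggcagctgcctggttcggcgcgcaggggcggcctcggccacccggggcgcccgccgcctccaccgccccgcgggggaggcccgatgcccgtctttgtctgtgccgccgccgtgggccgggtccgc

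Distances are measured from the start of the canonical BCL11A transcript, at 60780789, and are positive in the direction of transcription. The gene (ENSG00000119866.22_17, minus strand) spans chr2:60677655-60781602, 103.9 kb, and its canonical transcript has 4 exons. Intron 2, at chr2:60695969-60773105, takes 77.1 kb of it. Fold enrichment, the deposited peak value, was read as the summit pileup over the local background, with the same small constant (a pseudocount) added to both. The pileup is the number of fragments or extended reads over the summit, as the caller counted them. The constant lowers the ratio most at low pileups: at +114.0 kb in PBS R1, 7 fragments over a local background of 1.05 had a fold enrichment of 3.91. Fold enrichment was compared between libraries only as a percentile rank within each library's list, where 100 is the highest. A value of pileup over library background, used beside it, divides the recovered summit pileup by the lowest background of that library.

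**Figure D1:**
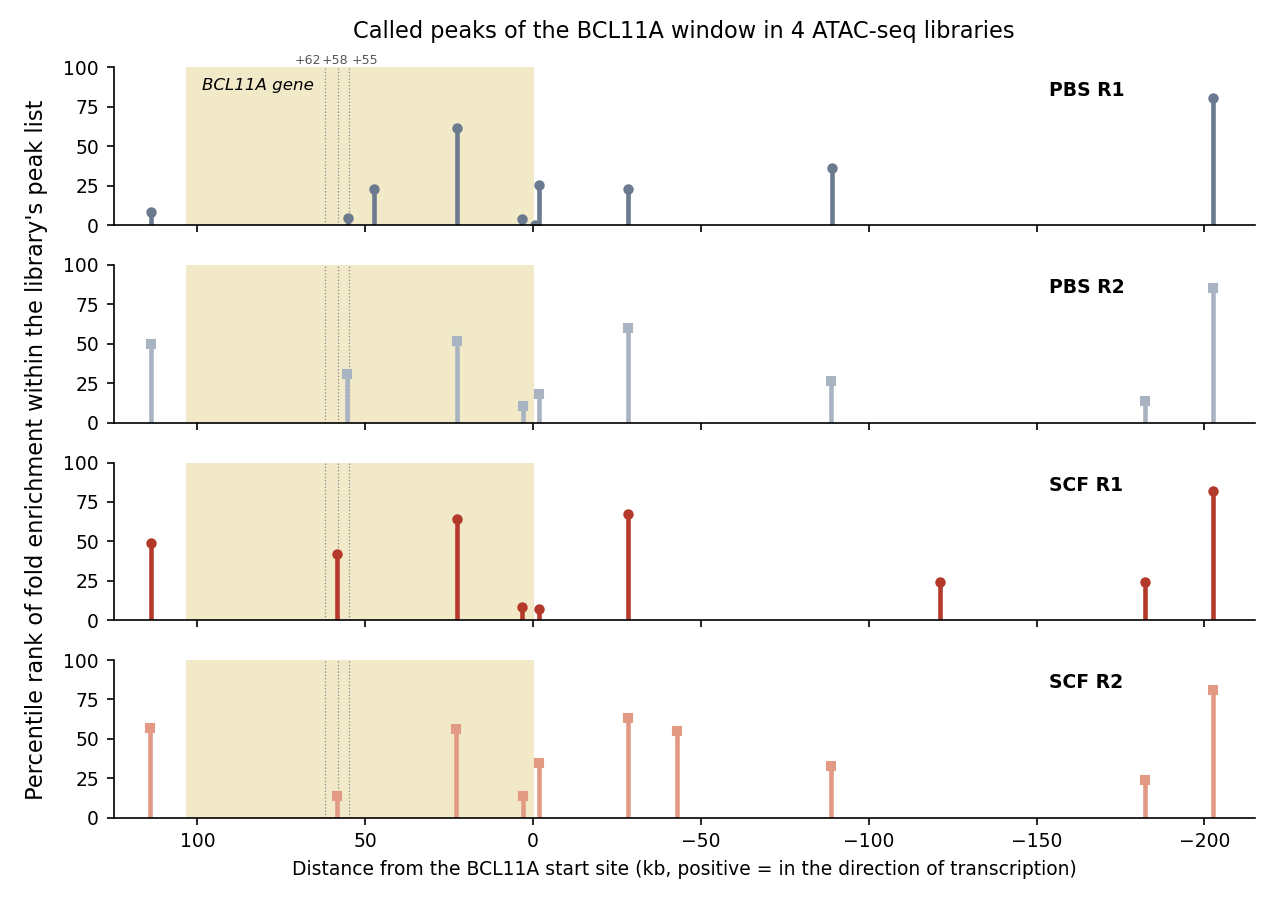
Called peaks of the BCL11A window in each library, by distance from the start site in kb (x axis) and percentile rank of fold enrichment (y axis, 0 to 100). Shading marks the gene and dotted lines the +55, +58 and +62 kb positions. SCF libraries have a peak near +58 and none near +55, PBS libraries the reverse, and no library has one near +62.

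The window held the same number of peaks with and without SCF. PBS R1 had 10, PBS R2 had 9, SCF R1 had 9 and SCF R2 had 10, a mean of 9.5 ± 0.707 in each group (SD, n = 2; difference 0, two-sided exact permutation p = 1). With 2 libraries against 2, the smallest p this test can give is 0.333. Of the 14 regions, 6 were called in all 4 libraries, beside a background of 51.3% of all regions. A further 2 were called in 3 libraries (background 10.2%) and 4 in 1 library alone (background 26.5%). Finally, 1 was called in both SCF and neither PBS library (background 1.65%), and 1 in both PBS and neither SCF library (background 2.37%). The peaks were unevenly spread. The window has no summit between its lower edge and the first peak, a stretch of 216.8 kb, and the nearest summit below the window in the 4 lists lay 1138 kb from its edge. On the upstream side, the last regions inside the window belong to PAPOLG, and the nearest summits beyond the edge lay 58.7 to 58.8 kb outside it.

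At the intron 2 enhancers, the called sites were not the same in the 2 treatments. The +58 kb element was represented by the +58.3 kb region (chr2:60722174-60722684), with a peak in SCF R1 and SCF R2 and none in the PBS libraries. It had 18 fragments over the summit in SCF R1 (95% exact Poisson interval 10.7 to 28.4) and 12 in SCF R2 (6.20 to 21.0), intervals that cover counting error only. Its ranks were 41.9 and 13.8, so both peaks lay in the lower part of their lists. The summits of both libraries lay 32 bp apart. These pileups were 19.1 and 13.6 times the library background. At a like local background, the lowest pileup called anywhere was 8 fragments in PBS R1 and 10 in PBS R2, which is 7.65 and 6.67 times background. A site in PBS cells below those values, or too narrow for the caller, would therefore have gone uncalled. The PBS lists hold no value at +58, so accessibility there in PBS went unmeasured and no exact fold between treatments can be given. The same region lies within 1 kb of the start of ENSG00000233953, a long non-coding transcript inside the intron.

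The +55 kb element had the opposite calls. The +55.3 kb region (chr2:60725358-60725762) was called in both PBS libraries and in neither SCF library. It had 9 fragments in PBS R1 (95% exact Poisson interval 4.12 to 17.1) and 18 in PBS R2 (10.7 to 28.4), which is 8.61 and 12 times background. The ranks were 4.70 and 31.0, and the PBS R1 peak was among the weakest of its list. The lowest pileup called at a like background was 7 fragments in both SCF libraries, or 7.42 and 7.91 times background. Neither element's peaks rank above the middle of their list, and in PBS R1 the distance between the +55 pileup and that library's own call limit (7 fragments) is 2 fragments. With peaks limited to a −log10 q of at least 5, SCF R2 lost its peak at +58 and PBS R1 its peak at +55, so that neither region was called in both libraries of a treatment. With as many peaks per library as the shortest list, the +58 calls stayed and the +55 peak of PBS R1 was lost.

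**Figure D2:**
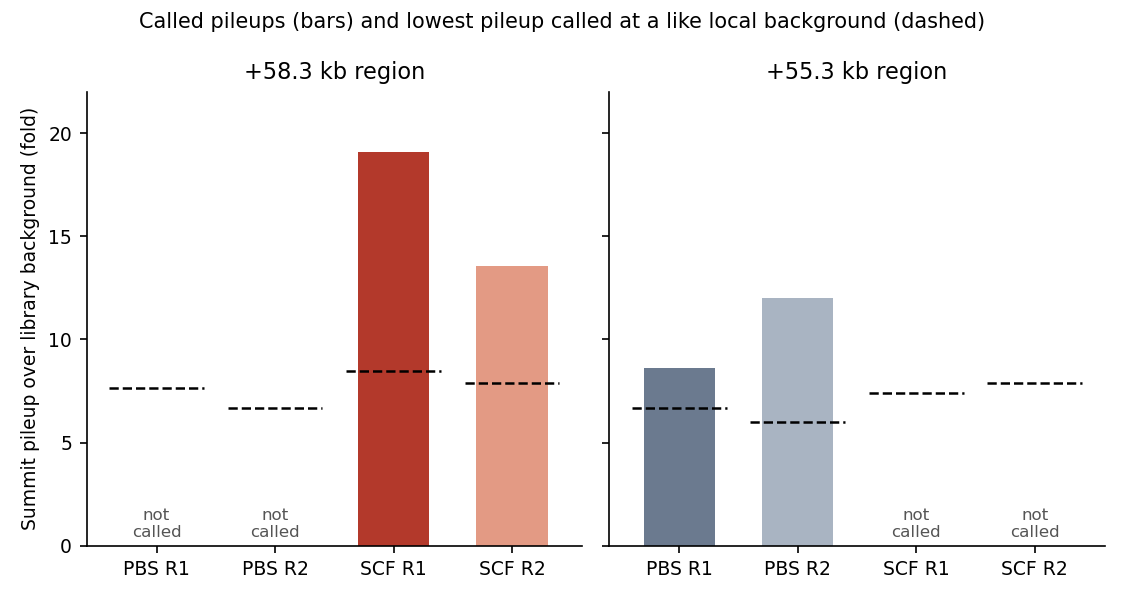
Summit pileup over library background (y axis, fold) at the +58.3 kb and +55.3 kb regions in the 4 libraries (bars), with the lowest value called at a like local background in that library (dashed lines). Bars stand in SCF libraries at +58 (19.1 and 13.6) and in PBS libraries at +55 (8.61 and 12), and the dashed lines lie between 6 and 8.48.

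No library had a peak at the +62 kb element, and the nearest summit lay 3.68 kb from that position. Intron 2 held 2 more regions. The +47.4 kb region (chr2:60733235-60733542) was called in PBS R1 alone, at rank 23 and 9 fragments. The +22.7 kb region (chr2:60757547-60758423) was the only region of intron 2 called in every library. Its summit pileups were 23 and 24 fragments in PBS and 19 and 20 in SCF, and its ranks were 61.8 and 51.9 in PBS against 64.0 and 56.4 in SCF. The ranks of the treatments overlapped (mean 56.8 ± 6.99 in PBS and 60.2 ± 5.43 in SCF, SD, n = 2), and the difference of 3.39 points gave an exact permutation p = 0.667. Its direction turned when peaks were ranked by pileup (−2.14 points).

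GATA words were read in the +55.3 and +22.7 kb regions of intron 2, and the letters of the +58.3 kb region are not reported here, so no absence of a word there should be read from this account. The +55.3 kb region held 2, AGATAA at 60725375 to 60725380 and TGATAA at 60725390 to 60725395, which lay 94 and 79 bp from the PBS R2 summit and outside the PBS R1 peak. The +22.7 kb region held AGATAA 17 bp from its highest-ranked summit, that of SCF R1, and a second GATA word elsewhere in the region. Summits of the libraries spread over 310 bp there, so this distance holds for SCF R1 only. GC content within 100 bp of the summit was 59.7% at +55.3 kb and 48.8% at +22.7 kb, beside a median of 54.2% over all summits.

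Across the 14 regions, a GATA word lay within 100 bp of the highest-ranked summit in 4 (28.6%), beside 25.4% of all 43569 summits on the 24 chromosomes. These were +55.3, +22.7, −42.9 and −88.9 kb. The counts in this paragraph take in the +58.3 kb region only within 100 bp of its SCF R1 summit. They say nothing of words elsewhere in that region or near its SCF R2 summit. The KLF word CCNCNCCC (N, any base) was found in 9 of 14 (64.3%, beside 38.2%), among them both promoter regions of BCL11A, and TGACCA, the word of BCL11A itself, in 2 (14.3%, beside 8.45%), the +114.0 and −88.9 kb regions. The ETS word CCGGAA was found in 1, the +114.0 kb region (7.14%, beside 8.15%). The AP-1 word TGANTCA was found in 0 of 14, beside 8.43% of all summits. The EGR word GCGTGGG (3.80% of all summits), the CRE word TGACGTCA (0.682%) and CTG 8 bases before a GATA word (2.87%) were also found in 0. Outside the 100 bp, the AP-1 word occurred in the +114.0 kb region, 127 bp from the summit, and in the −88.9 kb region, 212 bp from it. The EGR word occurred in the −1.7 and −28.2 kb regions, among others, 244 and 187 bp from the summit. Words were read on both strands, GATA words and the CTG combination overlap by construction, and a match is a description of letters, not of binding.

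The promoter by the 2 kb bound, the −1.7 kb region, was called in every library but stood low in every list by fold enrichment. Its summit lay 1.74 kb upstream of the start site, and within 1 kb only PBS R1 had a summit. The −1.7 kb region (chr2:60781572-60782905) had 44 and 59 fragments over the summit in PBS and 35 and 49 in SCF. Relative to library background these were 42.1 and 39.3 in PBS and 37.1 and 55.4 in SCF. Its ranks by fold enrichment were 25.2 and 18.2 in PBS and 7.35 and 34.8 in SCF. The 2 SCF libraries lay on either side of the PBS libraries, and the difference was −0.60 points (exact permutation p = 1). By pileup the same peaks ranked 69.3 and 72.2 in PBS and 62.8 and 76.7 in SCF. The local background that the caller used there was 7.67 to 9.30 times the library background, and the same peak ranked low by one measure and high by the other. Without SCF R1 the difference was 13.1 points and without SCF R2 −14.3 points. PBS R1 alone had another promoter peak, at −0.6 kb (chr2:60781248-60781491), with 24 fragments and the rank 0.195.

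A region inside intron 1, at +3.1 kb (chr2:60777114-60778002), lies within 1 kb of the annotated starts of 4 shorter BCL11A transcripts. It held 29 and 52 fragments in PBS and 35 and 37 in SCF, or 27.7, 34.7, 37.1 and 41.8 times library background. Its ranks by fold enrichment were 4.19 and 10.5 in PBS and 8.66 and 13.5 in SCF, a difference of 3.75 points with overlapping groups (exact permutation p = 0.667). Here too the local background was high, at 7.22 to 9.14 times that of the library. Without PBS R1 the difference was 0.58 points.

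**Figure D3:**
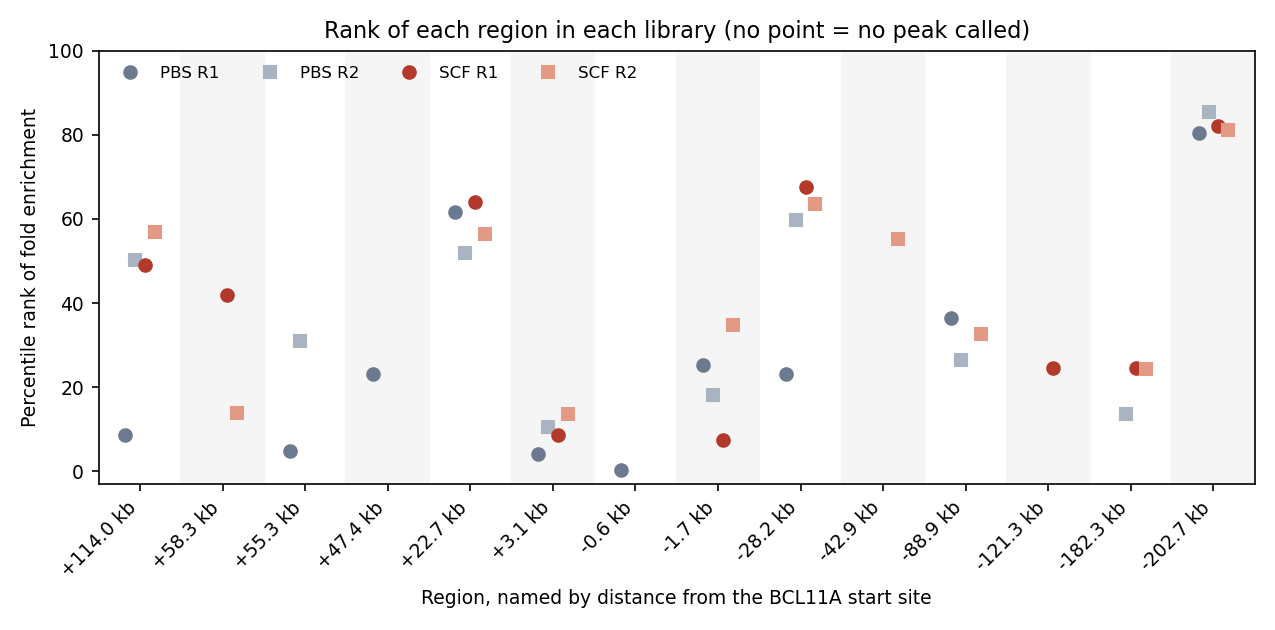
Percentile rank of fold enrichment (y axis) of the 14 regions, named by distance from the start site (x axis), with 1 point per library in which the region was called (circles R1, squares R2; grey PBS, red SCF). The PBS and SCF points do not overlap at −28.2 kb among the 6 regions with 4 points, and the −202.7 kb region (PAPOLG) stands above all others.

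Upstream of the promoter, 5 regions lay in the flank before PAPOLG. The −28.2 kb region (chr2:60808595-60809336) was the only one of them called in all 4 libraries. It had 9 fragments in PBS R1, 23 in PBS R2, 22 in SCF R1 and 18 in SCF R2, and ranks of 23 and 59.8 in PBS against 67.6 and 63.6 in SCF. Both SCF ranks were above both PBS ranks, by 3.75 points between the nearest pair. This was 1 of the 6 regions called in all 4 libraries, beside a background of 16.0% (and 19.3% in the other direction, with 0 of 6 here). The mean difference was 24.2 points (65.6 ± 2.82 in SCF and 41.4 ± 26.0 in PBS, SD, n = 2), at the smallest p of the design (exact permutation p = 0.333, adjusted p = 1 by Benjamini-Hochberg over the 6 regions). Most of it came from PBS R1: without that library the difference was 5.75 points. The summit sequence printed above has a GC content of 74.6%, and no GATA or AP-1 word.

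Each of the other flank regions was missed by at least 1 library. The −42.9 kb region (chr2:60823483-60823900) was called in SCF R2 alone, at rank 55.1 and 13 fragments, and holds a GATA word 53 bp from its summit. The −88.9 kb region (chr2:60869242-60869891) was called in PBS R1, PBS R2 and SCF R2, at ranks of 36.4, 26.5 and 32.6 and pileups of 11, 11 and 9 fragments. The −121.3 kb region (chr2:60901667-60902114) was called in SCF R1 alone, at rank 24.5 and 9 fragments. The −182.3 kb region (chr2:60962836-60963284), at the start of the pseudogene ATP1B3P1, was called in PBS R2, SCF R1 and SCF R2, at ranks of 13.6, 24.5 and 24.3. At a background as low as at these 4 regions, the lowest called pileup was 6 fragments in PBS R1, 7 in PBS R2, 6 in SCF R1 and 5 in SCF R2. Between summits, the longest stretches with none in any library measured 61.02 kb, between −121.3 and −182.3 kb, and 55.6 kb, between +58.3 and +113.9 kb.

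The study designed a guide RNA against an upstream element of BCL11A, which it names BCL11A-KRE. The paper counts the element among its Kit-responsive sites, which it defined by ATAC-seq. It shows HUDEP-2 accessibility and footprints there with SCF and PBS, and a variant linked to red cell traits. It also reports that editing the element lowered BCL11A mRNA and weakened the rise with SCF. The peak lists used here do not test those findings. The target is printed because it places that element between the called regions, with the PAM in capitals.
BCL11A-KRE guide target: caatcacaggaacctgcaggAGG
It matched the reference once, at chr2:60792679-60792698 on the plus strand, −11.9 kb from the canonical start site. No library had a peak there. The nearest called bases lay 9.77 kb away, at the edge of the −1.7 kb region, and the −28.2 kb region began 15.9 kb away on the other side. At library background the lowest pileup called was 6, 7, 6 and 5 fragments in PBS R1, PBS R2, SCF R1 and SCF R2, so accessibility at the target under about that level was not detectable in these lists.

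The window's outer regions belong to other genes. At +114.0 kb (chr2:60666522-60667026), beyond the 3′ end of BCL11A, lies the start of MIR4432HG, a microRNA host gene. It had 7 fragments in PBS R1, 16 in PBS R2, 13 in SCF R1 and 14 in SCF R2, and ranks of 8.57 and 50.2 in PBS against 49.1 and 57.0 in SCF. PBS R1 was again the lowest, and SCF R1 lay just below PBS R2. The difference was 23.7 points (exact permutation p = 0.667), and 2.85 points without PBS R1. The PAPOLG promoter, at −202.7 kb (chr2:60983016-60984180), belongs to a poly(A) polymerase gene. It ranked 80.5 and 85.5 in PBS and 82.1 and 81.1 in SCF, a difference of −1.41 points (exact permutation p = 1).

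Over the 4 libraries, the mean rank by fold enrichment was 82.3 ± 2.21 (SD, n = 4) at PAPOLG, 58.5 ± 5.47 at +22.7 kb, 53.5 ± 20.6 at −28.2 kb, 41.2 ± 22.05 at +114.0 kb, 21.4 ± 11.6 at −1.7 kb and 9.23 ± 3.92 at +3.1 kb. The ranges of +22.7, −28.2 and +114.0 kb overlapped, as did those of −1.7 and +3.1 kb. The −1.7 kb range also overlapped those of −28.2 and +114.0 kb, and the +3.1 kb range that of +114.0 kb. Only the PAPOLG ranks stood apart, the lowest being above every rank of the others. The order by pileup over library background was another. The −1.7 kb promoter (43.5 ± 8.19), PAPOLG (40.7 ± 1.96) and the +3.1 kb region (35.3 ± 5.86) came first with overlapping ranges. The +22.7 kb (20.2 ± 2.98), −28.2 kb (16.9 ± 6.43) and +114.0 kb regions (11.7 ± 3.97) followed, each overlapping the next.

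By pileup over library background, both SCF libraries were above both PBS libraries at 3 of the 6 regions (+114.0, +3.1 and −28.2 kb), beside a background of 36.1%, and below at 0, beside 6.69%. The background itself was uneven in direction, since the median over the regions called in all 4 libraries was 33.5 and 31.3 in PBS and 35.0 and 37.3 in SCF. At −28.2 kb the values were 8.61 and 15.3 in PBS and 23.3 and 20.3 in SCF. At +114.0 kb they were 6.69 and 10.7 in PBS and 13.8 and 15.8 in SCF. At these regions PBS R1 was the lowest library.

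**Figure D4:**
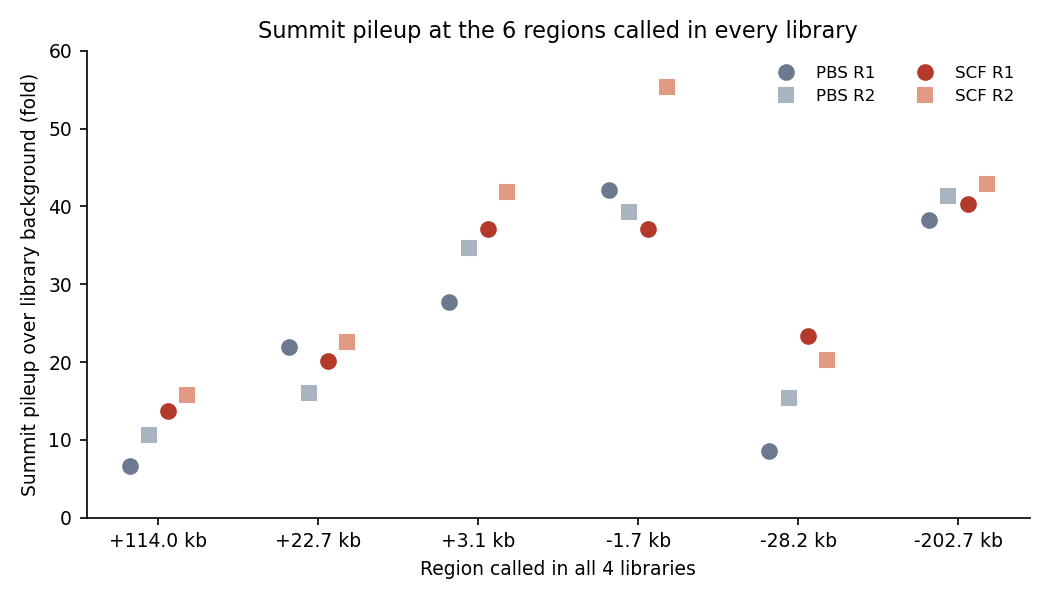
Summit pileup over library background (y axis, fold) at the 6 regions called in all 4 libraries (x axis), with 1 point per library. SCF points lie above PBS points at +114.0, +3.1 and −28.2 kb and mix with them at +22.7, −1.7 and −202.7 kb.

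BCL11A was set beside other well-known erythroid enhancer loci. Leaving PAPOLG out, 5 of the 13 regions of the BCL11A window were called in all 4 libraries, and no rank exceeded 67.6. The background for this count and for those of the other loci was 51.3% of all regions. Between HBS1L and MYB, whose intergenic enhancers act on the erythroid regulator MYB, 7 of 10 regions were called in all 4 libraries. The highest of them (chr6:135431219-135431830) ranked 94.1 and 94.6 in PBS and 76.7 and 95.1 in SCF, above every BCL11A rank in each library. The next 4 had mean ranks of 74.7, 72.2, 53.98 and 51.9. In the β-globin locus control region, the cluster of enhancers upstream of HBE1, 4 of 5 regions were called in all 4 libraries. Their mean ranks were 58.3, 50.3, 38.4 and 34.7, and the fifth was called in PBS R2 alone at rank 2.78. These loci differ in size and in how their bounds were set, so the counts are a description with no test.

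**Figure D5:**
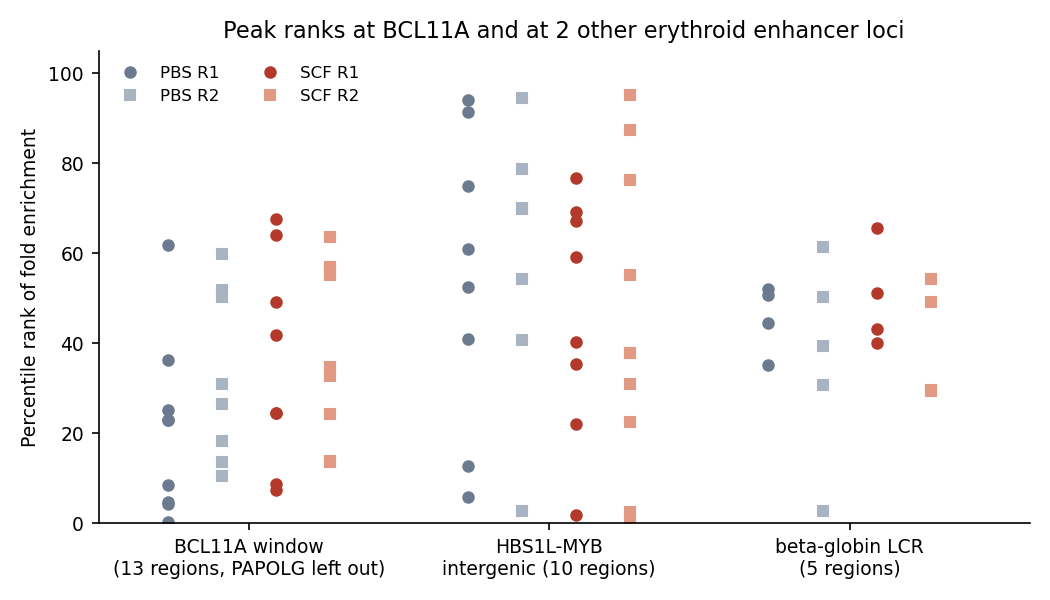
Percentile rank of fold enrichment (y axis) of every called region in the BCL11A window without PAPOLG, between HBS1L and MYB, and in the β-globin locus control region (LCR), 1 point per region and library. BCL11A points end at 67.6, and HBS1L-MYB points reach 95.1.

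Genes that regulate BCL11A, work with it or are repressed by it were read at their promoters (a region within 1 kb of the canonical start site). Of 32 such genes, 27 had a region called in all 4 libraries, beside a background of 57.6% of 19881 protein-coding genes, and 5 had none in any, beside 36.0%. Of 14 regulators, 13 were called in all 4, and the exception was LIN28B, an RNA-binding protein of fetal cells. Of 15 partners, mostly subunits of the NuRD, SIN3 and NCOR corepressor complexes, 14 were called in all 4, and the exception was SOX6, a factor that acts with BCL11A on the γ-globin genes. None of the 3 targets was called: HBG1 and HBG2, the γ-globin genes, and HBE1, the embryonic ε-globin gene. HBG1 and HBG2 are nearly identical copies, and whether reads there were placed uniquely was not tested. Of the 27 called, 3 ranked higher in both SCF libraries and 4 lower (background 16.0% and 19.3%), and none with a gap of 10 points. The median difference was −1.33 points, beside −0.53 over all regions called in all 4 libraries. For BCL11A itself the −1.7 kb region was used, which is promoter by the 2 kb bound and not by the 1 kb bound used for these genes. Within 1 kb, BCL11A had only the −0.6 kb peak of PBS R1, at rank 0.195. Among these 27, the promoters with ranks most like that of the −1.7 kb region were those of RUNX1, SIN3A and LMO2. Their mean absolute differences over the 4 libraries were 5.46, 8.11 and 8.88 points. RUNX1, a haematopoietic factor, ranked 18.9 and 24.96 in PBS and 8.43 and 42.5 in SCF. SIN3A, a corepressor scaffold, ranked 20.4 and 23.5 in PBS and 25.6 and 30.8 in SCF. LMO2, which bridges GATA1 and TAL1, ranked 13.01 and 11.7 in PBS and 5.996 and 19.3 in SCF.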

How the data were processed

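The labels assign 8 ATAC-seq samples to sgControl or sgEGR1 with PBS or SCF. The 4 sgControl peak lists were used and the 4 sgEGR1 samples were not analysed here. The authors used the ENCODE ATAC-seq pipeline, and the submitters' processing notes name bcl2fastq, Bowtie2 and SAMtools. The caller is not given in the sources used here. The methods name hg38, but the lists' first line and the series text name hg19, and no list exceeded GRCh37 on 24 chromosomes. Peaks were called per library. Peak names carry the replicate numbers 2 and 3 in PBS R1 and PBS R2, unlike the labels, and 1 and 2 in SCF R1 and SCF R2. The labels were followed, also for the replicate block.

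The deposited values are a fold enrichment (a ratio), −log10 p, −log10 q and a score, which was not used. A q threshold of 0.05 had been applied before deposit. Whole summit pileups, which with a local background gave both fold enrichment and −log10 p under a Poisson model (relative error under 0.0001), were found for 100% of peaks with a −log10 p under 300. The lowest local background of a list was its library background. The call limit at a site is the lowest pileup among peaks whose local background lay within 10% of the range seen there. Read totals are unknown.

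Peaks sharing at least 1 bp were merged, each region being represented by its highest-ranked peak. Enhancers were summits within 1.5 kb of +55, +58 or +62 kb, and promoters within 2 kb. Tests were two-sided exact permutation tests over libraries. Named genes were BCL11A, genes with a start within 1 kb of a summit, and listed genes not called in all 4 libraries, with non-overlapping ranks 10 points apart, or with the 3 promoters closest in rank, besides the 5 highest regions of each comparison locus. Markers are named as checks. Annotation was GENCODE release 44 lifted to GRCh37, analysed with SciPy 1.17.1 and pandas 2.3.3, and scripts were tested on simulated data. The window, members and lists were chosen with earlier results of these data known. Alternatives were stricter q, equal list sizes, narrower peaks, other ranks, a replicate block and leaving out each library. One sequence and one marker gene are not reported here.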

Additional observations from a re-analysis of the deposited data

How the results depend on the processing

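Of 78 alternative values, 61 were counted as unchanged, meaning the same direction or within 1.5 times. That count includes every alternative of the peak number, whose main difference of 0 has no direction. It also includes the replicate-block rank differences, which equal the main ones by construction. The count therefore overstates how stable the results were. The number of peaks per library differed by 1 at −log10 q of at least 5 and at equal list sizes, and by −0.5 to 0.5 without 1 library, with no p under 0.333. Regions called in SCF alone numbered 0 at the stricter q, 2 at equal list sizes (the second at −182.3 kb, where PBS R2 lost its peak) and 1 to 2 without 1 library (2 without PBS R2, SCF R1 or SCF R2). Regions called in PBS alone numbered 0 under both settings and 1 to 3 without 1 library (3 without PBS R2, 2 without SCF R2). Regions called in all 4 libraries numbered 4 to 7. With the promoter limited to 1 kb, it held 1 region, at −0.6 kb, and the −1.7 kb region moved to the flank. Of 48 alternative rank differences, 7 turned: the +22.7 kb region by pileup rank (−2.14) and without a library (−1.55 to 8.33), the −1.7 kb region at equal list sizes (1.40) and without a library (−14.3 to 13.1), and PAPOLG without a library (−3.88 to 1.06). The cause was not tested.

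The labels number replicates in both treatments, but same-numbered libraries did not deviate together (r = 0.0239 over 22398 regions, 2 pairs). With a replicate block the differences stay as they were (24.2 points at −28.2 kb, p = 0.5 by exact sign-flip permutation, the smallest p that 2 pairs allow), and no call changed. The depth limits all statements on uncalled sites, as given by the call limits.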
